A study of Mus musculus with 9 samples.

Results

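The ligands, receptors, binding proteins and docking adaptors of insulin-like growth factor (IGF) signaling were followed in cerebella of tumour-prone SmoA1 mice. The 10 genes chosen by name were Igf1, Igf2, Igf1r, Igf2r, Igfbp2, Igfbp3, Igfbp4, Igfbp5, Irs1 and Irs2. Of these, 9 were measured, by 39 array features, among 19087 named genes in all. Irs2 has no feature in the platform annotation used and was not analysed here. No measured value entered the choice of the genes, but they were chosen with earlier results of these data known.

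The study hybridised 9 arrays with 2 colours each, 5 of Pycard wild-type and 4 of Pycard knockout cerebellum, all from the SmoA1 medulloblastoma strain at postnatal day 20. Pycard encodes ASC, the adaptor between inflammasome sensors and caspase-1. SmoA1 is an activated Smoothened, the signal transducer of the Hedgehog pathway, expressed in granule neuron precursors by a transgene with a NeuroD2 promoter. Both genotypes carry SmoA1, and no sample is a day 20 cerebellum without it. Every array also carries one common reference in Cy3, RNA pooled from cerebella of postnatal day 16 that the labels call wild-type, with the sample in Cy5 and no dye swap. Each value is therefore a log2 ratio of sample over pool, and age, SmoA1 and dye cannot be told apart in it. Whether the arrays come from different animals is not stated in the labels. The p-values then measure only how these samples scatter, and part of that scatter may be technical.

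Igf1 and Igf2 are secreted peptides that activate the receptor tyrosine kinase Igf1r. Irs1 and Irs2 dock on the activated receptor and recruit PI3 kinase, which leads to Akt and mTOR. Igf2r, also the receptor for mannose 6-phosphate, carries Igf2 to the lysosome, and the Igfbp proteins hold the ligands in the extracellular space. In the developing cerebellum IGF signaling acts with Sonic hedgehog on the division and survival of granule neuron progenitors, and Igf2 is needed for tumour growth in mouse models of Hedgehog medulloblastoma. Igf2 is also made by the choroid plexus and meninges, and Igf1 by microglia of the postnatal brain.

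Pycard was between 0.72 and 1.32 on the wild-type arrays and between -2.84 and -1.48 on the knockout arrays, as the labels say. Array medians lay between 0 and 0.013, and the SD over 45220 features ran from 0.552 on knockout array 1 to 1.12 on wild-type array 4. The deposited ratios come without signal intensities, so dim features were not separated and no gene's abundance can be set against that of another. For the same reason the ratios do not show whether a marker of cerebellum is present at all, only how it stands against the pool. The number of arrays limits the precision.

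Against the day 16 pool, SmoA1 cerebella with Pycard had more Igf1, Igfbp4 and Irs1 RNA and less Igf2, Igfbp3 and Igfbp5 RNA. These were 6 of the 9 measured genes past the threshold (limma adjusted p under 0.05), 3 in each direction, where 25.0% of all 30654 values passed, 12.9% higher and 12.1% lower. On the knockout arrays Igf2 and Igfbp3 passed, both lower, and 7.63% of all values did, 4.28% higher and 3.35% lower. The array titles end in a letter (arrays 1 to 3 of each genotype) or a number (wild-type arrays 4 and 5, knockout array 4), which the labels do not explain. In the letter-titled wild-type arrays alone Igf1 (mean 0.79, limma adjusted p = 0.139), Igfbp5 (-0.40, limma adjusted p = 0.111) and Irs1 (0.50, limma adjusted p = 0.0512) did not pass, where 6338 of the 30654 values did. In the number-titled arrays 0 of the 30654 values passed (6100 with an unadjusted p under 0.05), so none of the 9 genes could be called there. Both comparisons use the same pool, which has no spread of its own. The median of the 9 genes was -0.090 in wild-type and -0.091 in knockout, beside 0.0078 and 0.0060 over all values. Each gene is set against its own level in the pool, and the tissue is bulk, so fewer cells of a type and less RNA per cell cannot be told apart.

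**Figure D1:**
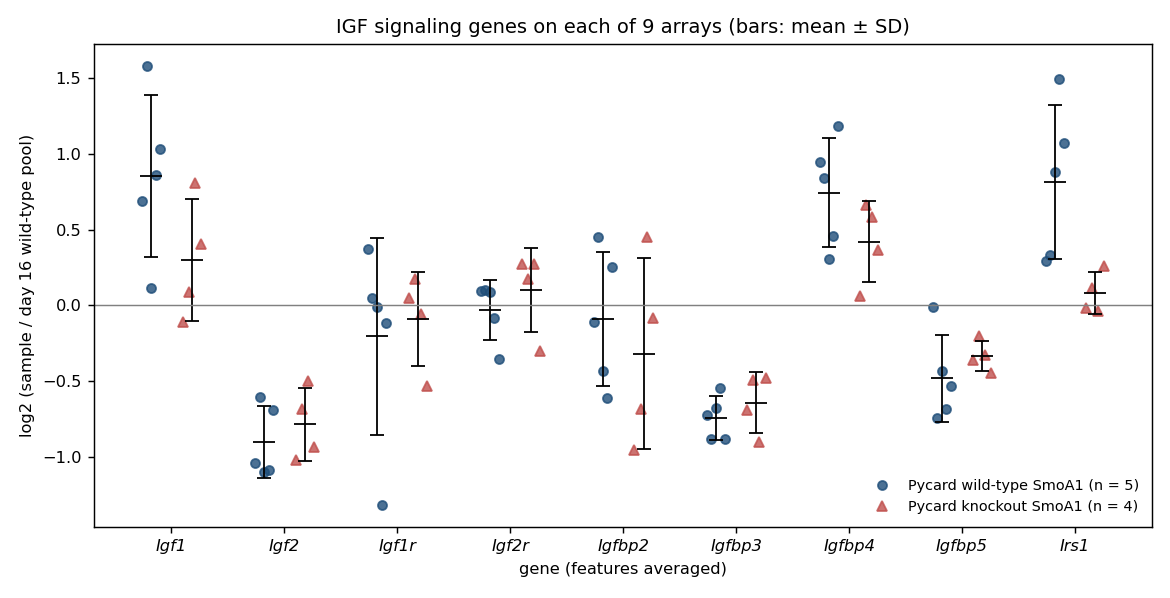
Log2 ratio of sample over the day 16 pool (vertical axis) for the 9 measured genes (horizontal axis), with a circle for each of 5 wild-type and a triangle for each of 4 knockout arrays and bars for mean ± SD. All 9 arrays lie below 0 for Igf2, Igfbp3 and Igfbp5 and above 0 for Igfbp4, and only for Irs1 do the genotypes not overlap.

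The ligands stood on opposite sides of the pool. Igf1 had log2 ratios of 0.69, 1.58, 0.11, 0.86 and 1.03 on wild-type arrays 1 to 5, and of -0.11, 0.090, 0.81 and 0.41 on knockout arrays 1 to 4. All wild-type arrays and 3 of 4 knockout arrays were above 0, with wild-type array 3 the lowest of its group. The wild-type mean was 0.85 ± 0.53 (SD, n = 5), or 1.81-fold the pool (95% interval 0.39 to 1.31 on the log2 scale, limma adjusted p = 0.0161). The knockout mean was 0.30 ± 0.40 (SD, n = 4; limma adjusted p = 0.479).

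Igf1 is read by 11 features, and they are not of one kind. The 10 features annotated to its RefSeq transcript gave nearly the same value on each array, with an SD between them of 0.0547 to 0.167 against 0.55 between the 9 arrays. The remaining feature, annotated to a separate cDNA record, had ratios of -0.028, 0.82, -2.00, -0.94 and -0.081 in wild-type and of -0.20, -0.48, -0.37 and -0.31 in knockout. It was thus below 0 on 8 of 9 arrays, while the other features were above 0 in wild-type. With both transcript records weighted equally the wild-type mean was 0.27 and did not pass (limma adjusted p = 0.459), so the call for Igf1 rests on the RefSeq transcript. Without wild-type array 5 the adjusted p was 0.0531.

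Igf2 lay below the pool on every array, with ratios of -1.04, -0.60, -1.10, -1.09 and -0.69 in wild-type and of -1.03, -0.68, -0.50 and -0.94 in knockout. The genotypes overlapped, with wild-type arrays 1, 3 and 4 below every knockout array and knockout array 3 above every wild-type array. The means were -0.91 ± 0.24 (SD, n = 5) in wild-type, 1.87-fold lower than the pool (limma adjusted p = 0.000769), and -0.79 ± 0.24 (SD, n = 4) in knockout, 1.73-fold lower (limma adjusted p = 0.00938). All 11 Igf2 features are annotated to 1 transcript and were lower than the pool in both genotypes when tested singly, with an SD between them of 0.0393 to 0.164 on an array. These features read the same RNA on each array and are not independent replicates.

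Neither receptor differed from the pool past the threshold. Igf1r had ratios of 0.37, 0.048, -0.012, -1.32 and -0.12 in wild-type and of 0.051, 0.18, -0.059 and -0.53 in knockout. Wild-type array 4 stood far below the others of its group, and the lowest knockout array was knockout 4. The mean was -0.21 ± 0.65 (SD, n = 5) in wild-type, or 0.073 without wild-type array 4, and -0.091 ± 0.31 (SD, n = 4) in knockout. Of its 5 features, 2 had a wild-type mean above 0 and 3 below, from -0.71 to 0.085. Igf2r, read by 1 feature, had ratios of 0.095, 0.10, 0.087, -0.083 and -0.36 in wild-type, with a mean of -0.032 ± 0.20 (SD, n = 5). In knockout its ratios were 0.27, 0.17, 0.27 and -0.31, with a mean of 0.10 ± 0.28 (SD, n = 4). Its lowest arrays were wild-type 5 at -0.36 and knockout 4 at -0.31.

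Among the binding proteins, Igfbp4 was above the pool and Igfbp3 and Igfbp5 below it. Igfbp4, which mostly restrains IGF action until a protease cuts it, had ratios of 0.95, 0.84, 0.30, 0.46 and 1.18 in wild-type and of 0.062, 0.66, 0.59 and 0.37 in knockout. All 9 arrays were above 0, as were 3395 of the 30654 values. The wild-type mean was 0.74 ± 0.36 (SD, n = 5), 1.68-fold the pool (limma adjusted p = 0.0060), and the knockout mean 0.42 ± 0.27 (SD, n = 4; limma adjusted p = 0.152). Both of its features were higher in wild-type when tested singly.

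Igfbp3, the main carrier of IGF in serum, had ratios of -0.72, -0.89, -0.68, -0.55 and -0.89 in wild-type and of -0.69, -0.49, -0.91 and -0.48 in knockout. Every array was below 0, which held for 3070 of the 30654 values. In wild-type the mean was -0.74 ± 0.14 (SD, n = 5), 1.68-fold lower than the pool (limma adjusted p = 0.000591), and -0.64 ± 0.20 (SD, n = 4) in knockout, 1.56-fold lower (limma adjusted p = 0.00791). Its 3 features, each annotated to another transcript record, had wild-type means of -1.06, -0.72 and -0.45, and the first 2 passed singly. The third, annotated to the RefSeq transcript, did not pass (limma adjusted p = 0.0554) and was at 0.063 on wild-type array 3. The same features had knockout means of -1.01, -0.58 and -0.34, of which only the first passed.

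Igfbp5, a binding protein also bound to matrix, had ratios of -0.015, -0.74, -0.43, -0.69 and -0.54 in wild-type and of -0.36, -0.20, -0.33 and -0.45 in knockout. The wild-type mean was -0.48 ± 0.29 (SD, n = 5), 1.40-fold lower than the pool (limma adjusted p = 0.0110), and the knockout mean -0.33 ± 0.10 (SD, n = 4; limma adjusted p = 0.129). Its 2 features disagreed: one had a wild-type mean of -0.86 (limma adjusted p = 0.000966) and the other of -0.10 (limma adjusted p = 0.57). The first feature was also lower in knockout, at -0.60 (limma adjusted p = 0.0245). The lower Igfbp5 was thus seen in 1 of 2 features. Both features carry the same transcript record, and the reason for the gap between them was not tested.

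**Figure D2:**
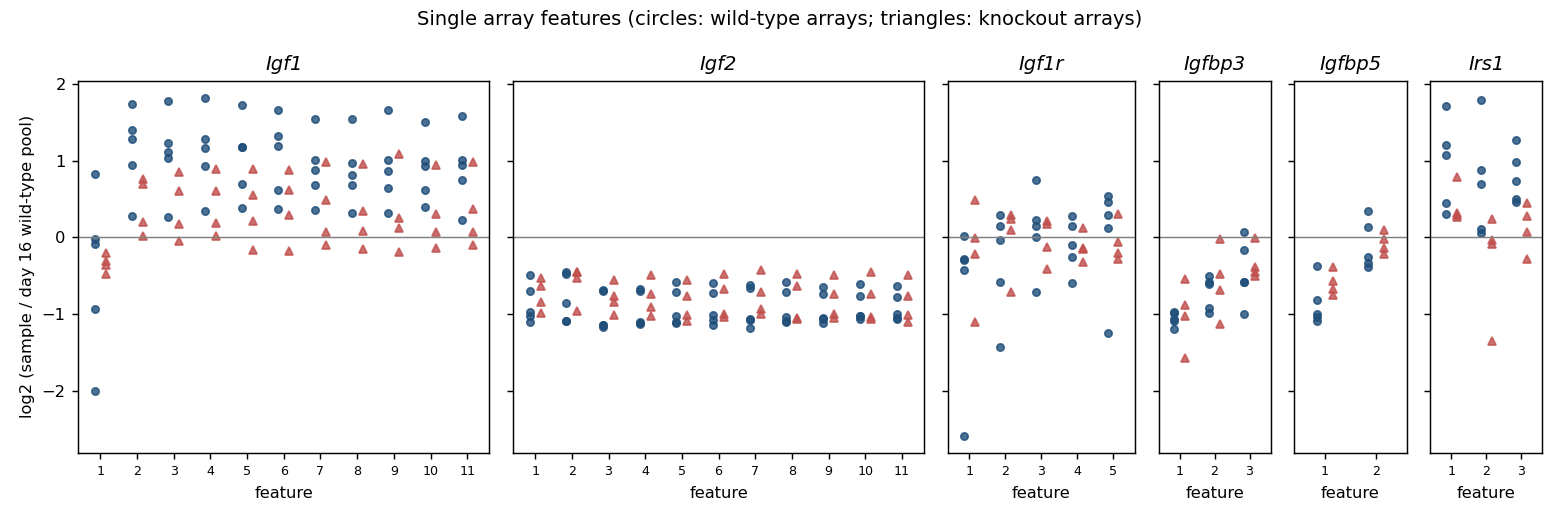
Log2 ratio of sample over pool (vertical axis) for every single array feature (horizontal axis, numbered within each gene) of 6 genes, circles for 5 wild-type and triangles for 4 knockout arrays. The 11 Igf2 features repeat one another, feature 1 of Igf1 lies apart from the other 10, and the 2 Igfbp5 features sit at different levels.

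Igfbp2, a binding protein of immature neural cells, choroid plexus and meninges, had ratios of -0.11, 0.45, -0.43, -0.61 and 0.25 in wild-type and of -0.96, -0.68, 0.45 and -0.086 in knockout. Both genotypes held arrays above and below 0, and neither mean passed (-0.090 ± 0.45, SD, n = 5, and -0.32 ± 0.63, SD, n = 4). The 4 arrays with the lowest Igfbp2 were knockout 1, knockout 2, wild-type 4 and wild-type 3. These were also the 4 arrays with the lowest summed level (mean log2 ratio) of choroid plexus markers, at -2.58, -2.37, -2.15 and -2.58, while the other 5 arrays lay between -0.65 and 0.71. Of the 10 listed markers 9 were measured, and their summed level ranged from -2.58 to 0.71 in wild-type and from -2.58 to 0.16 in knockout. Ttr, which encodes the transthyretin secreted by choroid plexus and was singled out after its values were seen, stood at -4.63, -4.52, -3.27 and -4.48 on those 4 arrays and between -1.06 and 1.08 on the rest. Not every marker fell so far. Otx2 of the same list stood at -0.40, 0.54, 0.47 and 0.16 on those 4 arrays and between 0.59 and 1.54 on the rest. Igf2 was lowest on wild-type arrays 3 and 4 as well, but knockout array 2, at -0.68, was among its higher values. The part of choroid plexus RNA in the values of Igfbp2 and Igf2 was not tested.

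Irs1, the docking adaptor, had the widest gap between the genotypes among the 9 genes. Its ratios were 0.29, 0.33, 0.88, 1.496 and 1.07 in wild-type and -0.018, 0.11, -0.041 and 0.26 in knockout. With its 3 features averaged, every wild-type array lay above every knockout array. The nearest were wild-type array 1 at 0.29 and knockout array 4 at 0.26. Of all values, 1.74% had groups that did not overlap. The wild-type mean was 0.81 ± 0.51 (SD, n = 5), 1.76-fold the pool (limma adjusted p = 0.0090), and the knockout mean 0.079 ± 0.14 (SD, n = 4; limma adjusted p = 0.859). The wild-type mean was 1.28 in the number-titled arrays (limma adjusted p = 0.237), against the 0.50 of the letter-titled ones given above.

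The comparison of knockout with wild-type asks how loss of ASC changes these genes in SmoA1 cerebellum, and it called none of the 9. Of all values 0.0163% passed, 5 of 30654, with 0.00652% higher and 0.00979% lower, and a limma fit blocked on replicate number left 0 (1868 with an unadjusted p under 0.05). Without the block, 1 of the 9 genes (Irs1) had an unadjusted limma p under 0.05, as did 1656 of the 30654 values. Of the 9 genes, 4 had a lower mean in knockout and 5 a higher one. Their median difference was 0.10, beside 0.0079 over all values. The mean of Irs1 was 1.67-fold lower in knockout, without passing. On the log2 scale this is -0.74 (SE 0.253, interval at 95% from -1.31 to -0.16), with limma adjusted p = 0.917 and an exact two-sided permutation p = 0.0317 that is not adjusted over genes. The smallest p that 5 against 4 arrays can give in that test is 0.00794. All 3 Irs1 features had a lower mean in knockout, by differences of -1.02, -0.66 and -0.53, and none passed singly. In 1 of them, annotated to the RefSeq transcript, the genotypes did not overlap. On knockout array 3 the features disagreed, at -1.36, 0.45 and 0.79 in the same order, and the averaged -0.041 takes in the -1.36. The feature at 0.79 there lay above its own values on wild-type arrays 1 and 2, 0.30 and 0.44. The feature at -1.36 did not pass singly in wild-type against the pool (limma adjusted p = 0.108).

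Leaving out any 1 array put the Irs1 difference between -0.87 and -0.57, and it was -0.48 in the arrays titled with a letter and -1.02 in those titled with a number. With array weights it was -0.40. Beside it, the summed level of markers of granule neuron progenitors and proliferation ranged from 2.18 to 2.82 in wild-type and from 0.62 to 2.15 in knockout, without overlap, and all 10 of its genes had a lower mean in knockout. Markers of oligodendrocytes did not overlap either, from -1.58 to -1.08 in wild-type and from -0.98 to -0.67 in knockout, with 8 of 9 genes at a higher mean in knockout. All 8 measured Purkinje cell markers also had a higher mean in knockout, with overlapping summed levels of -1.11 to -0.77 and -1.17 to -0.22. None of these markers passed between genotypes, and the part of RNA from these cells in the Irs1 values was not tested.

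Igf1 had a log2 difference of -0.56 (SE 0.303, interval at 95% from -1.25 to 0.14, limma adjusted p = 0.93, exact permutation p = 0.119), with all 4 knockout arrays below the wild-type mean. The groups overlapped, since knockout array 3 at 0.81 lay above wild-type arrays 1 and 3. Its 10 RefSeq features had a mean difference of -0.62 and its other feature of 0.11, so that equal weights gave -0.26, while array weights gave -1.04. Markers of microglia and macrophages, of which 9 of 10 were measured, had a summed level of 0.58 to 1.14 in wild-type and -0.22 to 0.94 in knockout, and all 9 had a lower mean in knockout. Knockout arrays 1 and 2 and wild-type array 3 were the 3 lowest arrays both for these markers and for Igf1. Fcrls, a microglial surface gene, was at 0.22 and 0.31 on knockout arrays 1 and 2 and at 0.94 on wild-type array 3, against 1.03 to 1.91 on the others. Aif1 of the same list was also lowest on knockout arrays 1 and 2, at 0.008 and 0.36. On wild-type array 3 it was not low, at 1.15, above wild-type array 1 (0.98) and knockout array 4 (0.94). The part of microglial RNA in the Igf1 difference was not tested.

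**Figure D3:**
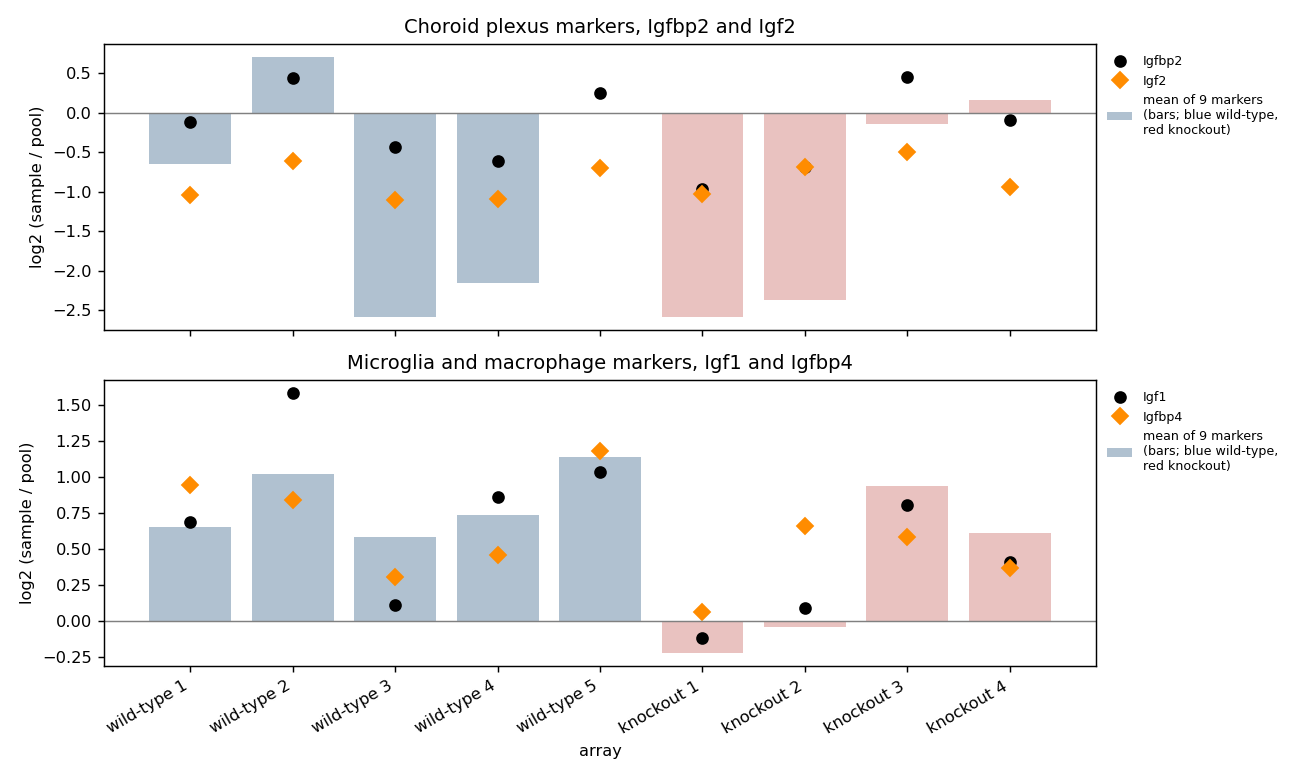
Bars give the mean log2 ratio over 9 choroid plexus markers (upper panel) and 9 microglia and macrophage markers (lower panel) on each array, and symbols give Igfbp2, Igf2, Igf1 and Igfbp4 on the same log2 scale. Igfbp2 is lowest on the 4 arrays with the deepest choroid plexus bars, and Igf1 is lowest on knockout 1, knockout 2 and wild-type 3.

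The mean of Igfbp4 differed by -0.33 (SE 0.21, interval at 95% from -0.81 to 0.16, limma adjusted p = 0.934), also with all 4 knockout arrays below the wild-type mean and with overlapping groups. Igfbp2 differed by -0.23 (95% interval -0.99 to 0.53), a value that was -0.015 without knockout array 1 and -0.79 with array weights. The other 5 genes had differences between 0.10 and 0.15. Igf2 differed by 0.12 (95% interval -0.25 to 0.49), Igf1r by 0.11 (-0.64 to 0.87), Igf2r by 0.13 (-0.23 to 0.50), Igfbp3 by 0.10 (-0.19 to 0.39) and Igfbp5 by 0.15 (-0.21 to 0.51). Their limma adjusted p-values ran from 0.952 to 0.984, and none of these intervals excludes a difference in either direction. The sign was not stable for Igf1r, which gave -0.16 without wild-type array 4, nor after quantile normalization for Igf2 (-0.10) and Igfbp3 (-0.011). Igf2 and Igf1r share chromosome 7 with the deleted Pycard, 180 and 653 measured genes away from it.

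**Figure D4:**
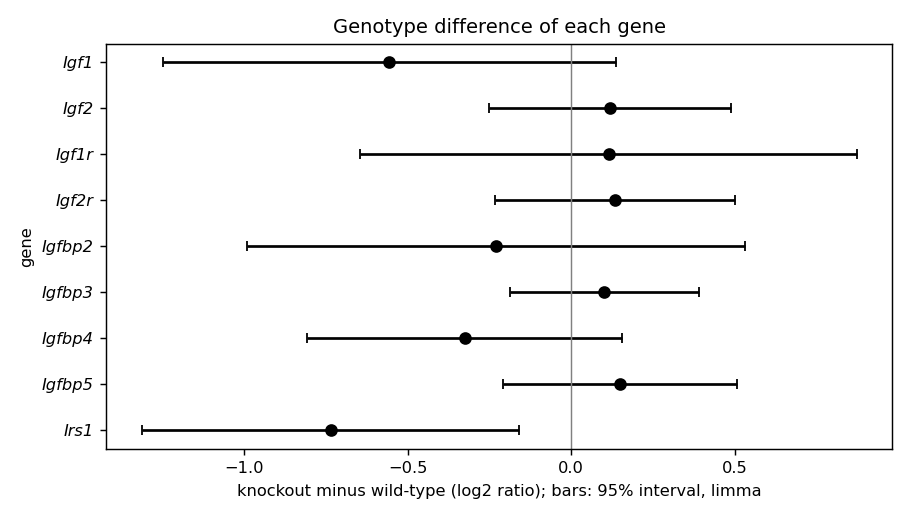
Difference of the group means, knockout minus wild-type, in log2 units (horizontal axis) for each gene (vertical axis), with 95% limma intervals. The interval includes 0 for 8 of 9 genes and lies below 0 for Irs1, without adjustment over the 30654 values.

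The 250 bases before 1 RefSeq start of each of 4 genes follow. Igf1 and Igf2 are shown as the ligands, which stood on opposite sides of the pool. Igfbp4 and Irs1 are shown as examples of windows with a motif match. Windows of Igf2r, Igfbp2 and Irs2 also hold a match and are not shown. The windows are read 5′ to 3′ on the strand of the gene (RefSeq, build GRCm38.p6). All 10 gene names matched the promoter table, which lists several starts for Igf2 and Igfbp2, and the most downstream start of Igf2 is shown. Capitals mark matches, on either strand, to the 4 motifs searched. GACCACCCA is a Gli consensus. CACGTG is an E-box bound by Myc proteins. TTGTTTAC is a Foxo consensus. TATAAA is a TATA box. None of the matches overlap.
Igf1 (chr10:87860861-87861110, plus strand): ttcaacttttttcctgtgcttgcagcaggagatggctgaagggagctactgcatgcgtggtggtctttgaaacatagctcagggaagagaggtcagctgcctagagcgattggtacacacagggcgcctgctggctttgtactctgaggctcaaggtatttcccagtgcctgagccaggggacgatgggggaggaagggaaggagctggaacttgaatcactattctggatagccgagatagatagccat
Igf2 (chr7:142657497-142657746, minus strand): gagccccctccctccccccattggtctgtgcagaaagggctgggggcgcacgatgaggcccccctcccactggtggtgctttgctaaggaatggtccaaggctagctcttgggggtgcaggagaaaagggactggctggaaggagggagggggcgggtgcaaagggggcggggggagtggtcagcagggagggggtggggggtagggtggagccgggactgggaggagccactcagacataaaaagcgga
Igfbp4 (chr11:99040994-99041243, plus strand): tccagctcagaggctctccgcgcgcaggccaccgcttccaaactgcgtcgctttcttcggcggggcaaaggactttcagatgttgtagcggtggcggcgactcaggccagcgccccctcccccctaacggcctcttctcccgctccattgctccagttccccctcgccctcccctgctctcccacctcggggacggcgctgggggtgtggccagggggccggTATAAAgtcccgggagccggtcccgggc
Irs1 (chr1:82291440-82291689, minus strand): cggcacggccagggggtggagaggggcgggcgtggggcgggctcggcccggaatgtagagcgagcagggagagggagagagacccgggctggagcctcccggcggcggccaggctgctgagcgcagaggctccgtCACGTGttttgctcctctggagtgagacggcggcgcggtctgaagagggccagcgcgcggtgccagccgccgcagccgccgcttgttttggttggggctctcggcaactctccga

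The Igfbp4 window holds TATAAA at -28 from the start, as 12.4% of 32851 such windows in the table hold it somewhere. The Irs1 window holds CACGTG at -115, which 6.02% of windows hold. The Igf1 and Igf2 windows shown hold none of the 4 motifs, and no window of the 10 genes holds GACCACCCA or TTGTTTAC, which occur in 0.225% and 1.07% of all windows. Besides Irs1, CACGTG was found in windows of Igf2r, Igfbp2 and Irs2. These matches describe letters in a window and say nothing about binding.

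Other genes of the pathway were taken from 4 lists with 51 genes, of which 46 were measured. Against the pool 15 of the 46 passed in wild-type, 6 higher and 9 lower, and 5 passed in knockout, 1 higher and 4 lower (background 25.0% and 7.63%). Between genotypes none of the 46 passed, and 21 had a lower and 25 a higher mean in knockout. In the letter-titled wild-type arrays alone, 6 of the 15 did not pass. These were Eif4ebp1 (mean 1.02, limma adjusted p = 0.125), Akt1 (0.39, limma adjusted p = 0.0597), Stc2 (0.29, limma adjusted p = 0.227), Igfbp6 (-0.35, limma adjusted p = 0.147), Adam9 (-0.49, limma adjusted p = 0.058) and Pdpk1 (-0.28, limma adjusted p = 0.0785). The median of a list against the pool lay between -0.29 and -0.055 in wild-type.

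Of the other ligands, receptors and binding proteins, Igfbpl1 had the highest mean ratio of the 15 genes that passed. This IGF-binding-protein-like gene stood at 2.39, 2.73, 2.97, 3.16 and 2.52 in wild-type and at 0.85, 2.34, 2.78 and 1.96 in knockout. The means were 2.75 ± 0.32 (SD, n = 5; limma adjusted p = 0.000293) and 1.98 ± 0.83 (SD, n = 4; limma adjusted p = 0.00693), and the groups overlapped. Igfbp7 was lower than the pool in both genotypes, at -0.54 ± 0.13 (SD, n = 5; limma adjusted p = 0.000999) and -0.43 ± 0.11 (SD, n = 4; limma adjusted p = 0.0148), and the knockout call was lost without knockout array 2, 3 or 4. In wild-type Igfbp6 was lower (mean -0.50) and the receptor-like gene Insrr higher (mean 0.37), and both calls were lost on leaving out single arrays. Igfbp6 lost it without wild-type array 3 or 5, and Insrr without any 1 of wild-type arrays 1 to 4 or of knockout arrays 2 and 3.

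Proteases that free IGF from its binding proteins, and their inhibitors, moved both ways against the pool. Pappa, the metalloprotease that cuts Igfbp4, had ratios of 1.16, 1.57, 1.32, 1.24 and 0.86 in wild-type and of 1.01, -0.032, 1.47 and 0.13 in knockout. It was higher than the pool in wild-type, at 1.23 ± 0.26 (SD, n = 5; limma adjusted p = 0.00395), and its knockout mean was 0.64 ± 0.71 (SD, n = 4; limma adjusted p = 0.144), with knockout arrays 2 and 4 low. Stc2, a stanniocalcin that inhibits Pappa, had a wild-type mean of 0.53 (limma adjusted p = 0.0317) and a knockout mean of -0.15. Its call was lost without wild-type array 3, 4 or 5 or knockout array 2. Its difference of -0.68 (SE 0.223, limma adjusted p = 0.917) had the smallest unadjusted p of the 46 genes, 0.0149, followed by Foxo1 and Igfbp6. The serine protease Htra1 was lower in wild-type, at -0.94 ± 0.27 (SD, n = 5; limma adjusted p = 0.000728), and in knockout, at -0.78 ± 0.22 (SD, n = 4; limma adjusted p = 0.0105), with 0.0535 without knockout array 2. The metalloprotease gene Adam9 was lower in wild-type (mean -0.45, limma adjusted p = 0.00833).

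Of the imprinted and growth hormone regulators, 1 of 7 passed in wild-type, where 25.0% of all values did. This was Grb10, an imprinted adaptor that restrains insulin and IGF receptors, lower in wild-type at -0.48 ± 0.31 (SD, n = 5, limma adjusted p = 0.0160).

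Downstream of the receptor, 6 of 22 genes passed in wild-type, 2 higher and 4 lower. Of all values, 12.9% passed there as higher and 12.1% as lower. Eif4ebp1, the translation repressor that mTOR inactivates, had ratios of 0.80, 0.89, 1.36, 2.38 and 1.83 in wild-type and of -0.31, 0.14, 1.67 and 0.19 in knockout. Knockout array 3 alone stood within the wild-type range. Its mean was 1.45 ± 0.66 (SD, n = 5; limma adjusted p = 0.0105) against 0.42 ± 0.86 (SD, n = 4; limma adjusted p = 0.522), a difference of -1.03 (SE 0.467, limma adjusted p = 0.917). The kinase gene Akt1 varied little within wild-type, from 0.35 to 0.46, and was higher than the pool there at 0.40 ± 0.045 (SD, n = 5; limma adjusted p = 0.00615). In knockout Akt1 was at -0.069, 0.17, 0.45 and 0.13.

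Foxo1, a transcription factor that Akt holds out of the nucleus, was lower than the pool in wild-type, at -0.87 ± 0.14 (SD, n = 5; limma adjusted p = 0.000413), and in knockout, at -0.55 ± 0.23 (SD, n = 4; limma adjusted p = 0.0164). The knockout call of Foxo1 was lost without knockout array 2 or 3. The kinase gene Pdpk1 was lower in both, with means of -0.40 (limma adjusted p = 0.0177) and -0.46 (limma adjusted p = 0.0385). Its knockout call was lost without any 1 array other than wild-type 4. Rictor, of the second mTOR complex, was lower in wild-type (mean -0.59, limma adjusted p = 0.0112), and so was the small GTPase gene Rheb (mean -0.24, limma adjusted p = 0.0338). The Rheb call was lost without any 1 of wild-type arrays 1, 2, 3 and 5 or knockout arrays 1 and 2.

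**Figure D5:**
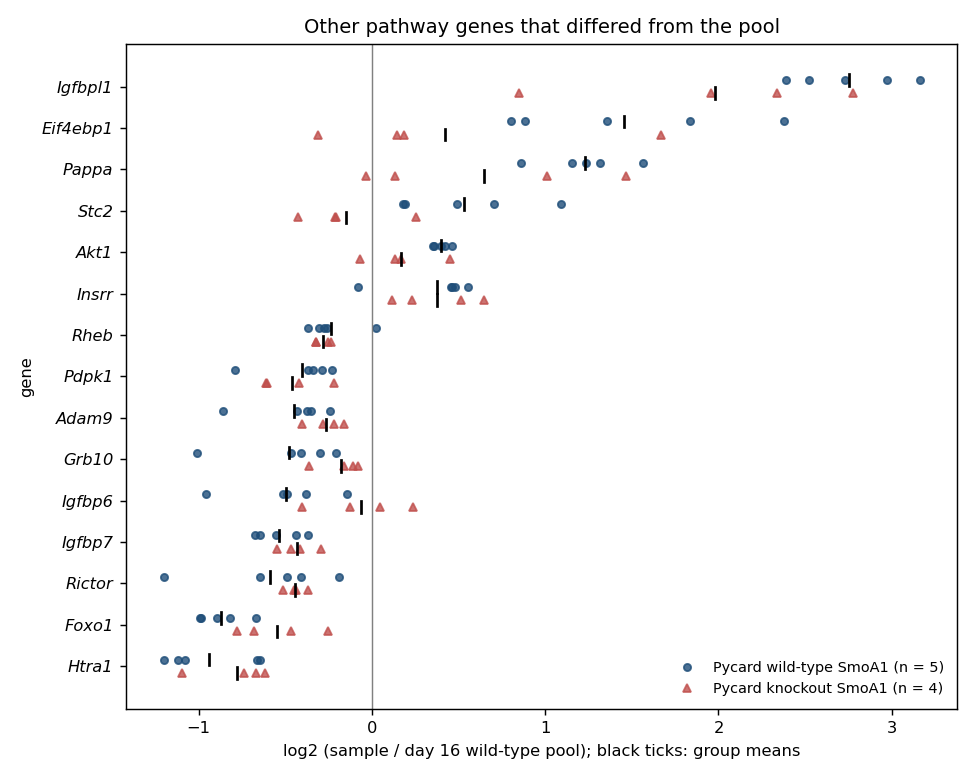
Log2 ratio of sample over pool (horizontal axis) for the 15 other pathway genes past the threshold in either genotype against the pool (vertical axis), circles for 5 wild-type arrays, triangles for 4 knockout arrays and black ticks for the group means. Igfbpl1, Eif4ebp1 and Pappa lie furthest to the right, and Htra1 and Foxo1 furthest to the left.

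Markers of other cerebellar cells were measured on the same arrays. Of all 30654 values, 12.9% passed as higher than the pool in wild-type and 12.1% as lower. Against the pool in wild-type, all 10 progenitor and proliferation markers passed as higher, with a median of 2.86 over the list. Those with the smallest p were Nhlh1 (mean 3.13) and Barhl1 (1.67). All 9 oligodendrocyte markers passed as lower, with Mal at -1.37 and Mog at -1.21, and so did all 8 Purkinje cell markers, with Calb1 at -1.24 and Slc1a6 at -1.03. Of endothelial and pericyte markers 6 of 10 were lower (Pdgfrb at -0.45 and Abcc9 at -0.78), and of meningeal fibroblast markers 6 of 10 (Col1a1 at -0.83 and Col1a2 at -1.09). Their summed levels ran from -0.48 to -0.34 and from -0.57 to -0.054 in wild-type. Of astrocyte and Bergmann glia markers 6 of 10 were lower (Gdf10 at -1.97 and Ntsr2 at -0.72). Granule neuron markers had 4 lower and 1 higher of 9, with Vsnl1 at -0.83 and Calb2 at -0.79. Among microglial markers 5 were higher and 1 lower, with Fcrls at 1.46 and Aif1 at 1.43. Of choroid plexus markers only Otx2 passed, higher at 0.87, while Sostdc1 was at -2.43 without passing. Their part in the lower Igf2, Igfbp3 and Igfbp5 values was not tested.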

How the data were processed

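The authors deposited 1 processed log2 ratio per feature and array, with Agilent Feature Extraction named in the submitters' processing notes. Corrections of background and dyes, and any filters, were not given in the sources used here. Nothing states the log base. Values larger in size than 4.82, the limit of log10 of a ratio of 16-bit signals, occur on every array (856 in all), and 1 value, of size 11.4, passes 11.1, the limit for natural logs. Base 2 was taken as an assumption, on which every printed fold depends. The direction, Cy5 over Cy3, comes from the dyes per the labels. Of 45220 features, 33653 have 1 symbol, 56 several and 11511 none. Symbols were updated by gene identifier through a RefSeq table (GRCm38.p6), which changed 0. Features of 1 symbol were averaged and the others kept apart, which gave 30654 values.

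limma 3.58.1 in R 4.3.3 (lmFit, eBayes, two-sided) gave each genotype's mean against 0 and their difference in 1 fit of all 9 arrays with no covariate, Benjamini-Hochberg adjustment across 30654 values, a threshold of 0.05 and 95% intervals that are not adjusted. The fit was tested on simulated data with planted differences larger than any between the genotypes among the 9 genes. Differences as small as those of the 9 genes were not planted. An exact permutation test over arrays was run per gene. Replicate numbers 1 to 4 occur in both genotypes; deviations of same-numbered arrays correlated at 0.244, 0.247, 0.446 and 0.304, so a block on the number was fitted as an alternative. Other settings were title style, leaving out each array, quantile normalization, median centring, single features, a filter on SD (above its 0.25 quantile), array weights, a trended robust prior, zeros as missing, named features alone, other thresholds and, chosen after seeing the data, equal weights for transcript records.

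All 10 genes, the pathway and marker lists were chosen with earlier results of these data known. Named besides the 9 measured genes were Pycard, the pathway genes past the threshold in any comparison, the 3 with the smallest p between genotypes, 2 genes per marker list by smallest p against the pool, and the 3 genes most like each of Igf1, Igf2, Igfbp2 and Igfbp5. Ttr was added after its values were seen.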

Additional observations from a re-analysis of the deposited data

How the results depend on the processing

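The number of the 9 genes called between genotypes was 0 under every setting run. Against the pool in wild-type, 6 genes were called, 5 to 6 with any 1 array left out. The number was 3 in the letter-titled arrays alone. It was 3 with the filter on SD, which removes Igf2, Igf2r, Igfbp3 and Igfbp5, and 0 with a minimum of 1 on the log2 scale. In knockout 2 were called, 0 in the number-titled arrays, with the filter on SD and with the minimum of 1, and 4 with array weights, which added Igfbp2 (-0.61) and Igfbp4 (0.48).

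Over all values, the 5 calls between genotypes became 0 with the replicate block and within either title style (1868, 1065 and 1651 with an unadjusted p under 0.05), and 3 after quantile normalization and with named features alone. They became 1 without wild-type array 1, 2 or 5 or knockout array 1 or 2, 2 without wild-type or knockout array 4, 3 without knockout array 3 and 6 without wild-type array 3. The 7650 calls of wild-type against the pool became 0 in the number-titled arrays (6100 unadjusted), 4268 with the filter on SD, 1691 with the minimum of 1, 12094 by single features and 5776 to 7308 with an array left out. The 2340 calls of knockout became 0 in the number-titled arrays (2780 unadjusted), 4649 after quantile normalization, 8534 with array weights, 922 with the filter on SD, 1094 with a trended prior, 3955 at an adjusted p under 0.10, 606 with the minimum of 1, 3752 by single features and 553 to 3350 with an array left out. The lowest of these were 553, 774, 1192 and 1365, without knockout array 2, 3, 1 and 4. The replicate block was fitted only between genotypes, where none of the 9 genes or the 46 pathway genes was called with or without it.

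Directions turned only among values that had not passed. Differences between genotypes turned for Igf1r (-0.081), Insrr (-0.031) and Rheb (0.0067) in letter-titled arrays, for Igf2 (-0.047), Igf2r (-0.085), Igfbp2 (0.094), Insrr (-0.074) and Igfbp7 (-0.063) in number-titled ones, for Igf2 (-0.10), Igfbp3 (-0.011) and Rictor (-0.014) after quantile normalization, and for Insrr with the replicate block (-0.11) and the title block (-0.044). Means against the pool turned in wild-type for Igf1r (0.14) and Igf2r (0.094) in letter-titled arrays and for Igf1r (0.063), Igf2r (0.052) and Igfbp2 (0.18) with array weights. In knockout they turned for Igf1r (0.056) in letter-titled and Igf2r (-0.31) and Igfbp6 (0.046) in number-titled arrays, and for Igf1r (0.070) and Igfbp6 (0.072) with array weights. With an array left out, the ranges that crossed 0 were -0.16 to 0.26 (Igf1r), -0.11 to 0.092 (Insrr), -0.078 to 0.019 (Rheb) and -0.0083 to 0.25 (Rictor) between genotypes. Against the pool they were -0.35 to 0.073 (Igf1r), -0.065 to 0.050 (Igf2r) and -0.23 to 0.040 (Igfbp2) in wild-type, and -0.18 to 0.056 (Igf1r) and -0.16 to 0.052 (Igfbp6) in knockout. The cause was not tested. Smaller subsets hold fewer arrays by construction, the lone number-titled knockout array is assumed to vary like the wild-type ones, and without signal intensities dim features limit what can be read.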

Other observations

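Genes whose pattern over the 9 arrays was most like that of a member were sought among 7015 named genes with an SD of at least 0.348, the median of the 9 genes. For Igf1 these were the chemokine gene Cxcl10 (Pearson r = 0.951), Cfap206 (0.951) and Tlr2, a receptor of innate immunity (0.95). For Igfbp2 they were Naip2, an inflammasome sensor gene (0.973), the cholesterol transporter gene Abca1 (0.965) and Tnfaip2 (0.957). Igf2 was most like Ubqlnl (0.918), Ddx60 (0.907) and Dmkn (0.87), and Igfbp5 most like Speer2 (0.863), Olfr878 (0.842) and Adad1 (0.838). Spearman's rho for these 12 genes lay between 0.75 and 0.983. They were picked for their r, so no test is given, and all points share the pool and the dyes.

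Outlying arrays were looked for in the 18 combinations of gene and genotype by Dixon's gap test, and 0 were flagged. With 4 or 5 arrays in a group the test flags only a gap that makes up most of the range. It can therefore miss an outlying array, and it did not flag Igf1r on wild-type array 4, at -1.32.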
